A study of Homo sapiens with 12 samples.

Results

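The genes described here are the integrins, cadherins, protocadherins, collagens, laminins, matrix metalloproteases (MMPs), ADAMTS proteases, latent TGF-β binding proteins (LTBPs) and tissue inhibitors of metalloproteases (TIMPs) in a table of 3699 genes from SW480 cells. They were chosen by gene symbol alone, and 63 of the 3699 listed genes fitted the naming rule. The rule also admits ITGB1BP2, an integrin binding protein that is no integrin chain, and the ADAMTSL genes, whose products resemble ADAMTS proteases but lack the protease domain. RefSeq names 230 protein-coding genes of these families, of which the table holds 13 of 29 integrins, 4 of 23 cadherins, 12 of 66 protocadherins, 9 of 44 collagens, 5 of 12 laminins, 8 of 24 MMPs, 7 of 24 ADAMTS genes, 2 of 4 LTBPs and 3 of 4 TIMPs. Several textbook genes of colon epithelium, among them CDH1, ITGB1, ITGB4 and MMP7, were not analysed here.

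SW480 is an established line from a human colorectal adenocarcinoma, so the results describe 1 cell line in culture. RNA was sequenced in 12 libraries: 3 from untreated cells, 3 from cells given PUE, 3 from cells given GLY and 3 from cells given both (GLY_PUE), with the abbreviations kept as the labels give them. Per the protocols, all cells were grown for 12 h with 10% serum and then for 12 h with or without treatment. The labels of the GLY libraries give 12, 13 and 14 h for replicates 1, 2 and 3, so replicate and labelled time cannot be told apart in that group. Whether replicates were cultured separately is not stated, and the p-values below therefore reflect library-to-library spread that could be technical.

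Integrins are cell surface receptors made of an α and a β chain that tie the cytoskeleton to the matrix. Laminins, collagens IV and VII and their integrin receptors build and anchor the basement membrane under the colon epithelium, while cadherins hold neighbouring cells together. MMPs and ADAMTS enzymes cut matrix proteins, TIMPs block them, and LTBPs hold TGF-β and related proteins in the matrix.

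Totals of 19.7 to 21.4 M reads per library were recovered from the deposited values, and levels are given below as CPM (counts per 1 M reads), in the order of replicates 1, 2 and 3. A count of 0 allows up to 0.152 CPM, for counting error only. The table is a selected list: each gene in it passed the authors' own thresholds in at least 1 comparison, so counts of calls are read against the share of all tested genes that were called. The same libraries made that selection, so adjusted p-values and groups without overlap for single genes are no independent evidence of change. Most lower calls depended on the scaling. With the recovered totals, the median log2 fold change of all 3429 tested genes was -1.15 in GLY and -1.03 in GLY_PUE against untreated. TMM, a scaling that centres the listed genes on no change, raised the log2 fold changes by 1.13 and 1.01. Single libraries departed from their group in some of the 34 members with a mean untreated count of at least 20. The first GLY library lay below 0.5 of the mean of the other two GLY libraries in 8 (ADAMTS19, LTBP1, ITGA1, ITGA2, ITGA6, ITGAV, ITGB6 and PCDHAC2). It lay above 2 times that mean in 1 (MMP15). Libraries numbered 3 also differed: CDH3 and LAMB3 lay below 0.67 of the mean of the other two libraries in all 4 groups, and ITGB2 and PCDHAC2 lay above 1.5 times that mean in all 4. Of 13 colon epithelium markers, 3 were in the table (CDX2, VIL1 and ASCL2), with a summed FPKM of 69.6 to 90.4 in untreated, 66.8 to 94.9 in PUE, 10.0 to 18.8 in GLY and 10.6 to 12.3 in GLY_PUE libraries. The leukocyte markers CD14 and CD68, 2 of 6 on that list, summed to 2.60 to 3.89 FPKM in untreated and 9.49 to 13.5 in GLY libraries. PDGFRB, 1 of 10 fibroblast markers, was at 0.15 to 0.18 FPKM in untreated and 0.29 to 0.62 in GLY libraries. None of 6 endothelial markers was in the table. Because genes were listed for a difference between groups, presence or absence of a marker cannot check the cell label. The part of these marker levels in the results was not tested.

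Promoter sequence from RefSeq (GRCh38.p14) was matched for 43 of the 63 members. The 120 bases before the start site are shown for LAMB3 and LAMA5, laminin chains that moved in opposite directions with the recovered totals. They are also shown for 2 proteases, MMP14, which was higher in GLY libraries, and MMP10, which was not tested. Most MMP10 counts in GLY came from the third library. Capitals mark TGANTCA, the site known for AP-1 factors, and GGGCGG, the GC box known for Sp1, both searched on both strands.
LAMB3 at chr1:209651375-209651494 on the minus strand: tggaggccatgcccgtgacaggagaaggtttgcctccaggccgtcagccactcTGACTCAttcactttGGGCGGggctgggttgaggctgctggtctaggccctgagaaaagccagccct
MMP10 at chr11:102780629-102780748 on the minus strand: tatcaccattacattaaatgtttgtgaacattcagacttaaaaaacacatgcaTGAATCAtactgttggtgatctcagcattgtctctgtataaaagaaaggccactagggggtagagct
LAMA5 at chr20:62367313-62367432 on the minus strand: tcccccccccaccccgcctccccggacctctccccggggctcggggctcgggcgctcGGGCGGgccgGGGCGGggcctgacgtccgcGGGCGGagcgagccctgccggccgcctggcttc
MMP14 at chr14:22836465-22836584 on the plus strand: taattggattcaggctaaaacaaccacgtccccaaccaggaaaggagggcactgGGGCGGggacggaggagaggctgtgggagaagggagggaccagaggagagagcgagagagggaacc
In these stretches TGANTCA begins 67 bases before the start in both LAMB3 and MMP10, GGGCGG occurs 3 times in LAMA5, and no match of one motif overlaps a match of the other. Over the full window of 250 bases before to 50 after the start, 3 members held TGANTCA (CDH12, LAMB3 and MMP10), against 9.37% of all 27305 genes with such a window. GGGCGG was found for 22 of the 43 members, against 48.3% of all genes. A gene with several windows counts once if any of them holds the motif. By window, 3 of 56 of the members' windows held TGANTCA and 26 GGGCGG, against 7.71% and 45.0% of 35116. A match is a description of letters and not of a bound site.

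GLY against untreated asks what GLY alone changed. Laminin and integrin chains of the epithelial basement membrane (LAMB3 and ITGA3), collagens VI and VII, MMP14, MMP1 and TIMP3 and TIMP4 rose, while with the recovered totals LAMA5, COL4A2, TIMP2 and several ADAMTS genes fell. Of 49 members tested, 15 were higher and 25 lower (edgeR, adjusted p under 0.05), where 84.3% of all tested genes were called, 19.7% higher and 64.6% lower. The members' median log2 fold change was -1.06, beside -1.15 for all tested genes. The members' share of calls lay close to that of all tested genes, with more calls higher and fewer lower, a difference that was not tested. The 15 higher members were called with every one of 3 scalings, the recovered totals, TMM and RLE (19.7% of all tested genes were). TMM and RLE raised the log2 values, so higher calls had little room to be lost, and all 674 genes called higher kept the call. Only ADAMTS8, ADAMTS15 and ADAMTS19 were called lower with all 3 (10.1%). With TMM alone, 18 members were higher (23.7% of all tested genes) and 3 lower (10.1%). The libraries of both groups did not overlap for 15 members with higher and 25 with lower values (17.8% and 65.5% of all tested genes). In bulk RNA, fewer cells of a type and less RNA per cell cannot be told apart. The authors' deposited table marks 50 members in this comparison, with 17 higher and 33 lower (77.8% of the listed genes are marked).

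By family, 3 of 12 tested integrins rose and 5 fell, 3 of 7 collagens rose and 3 fell, 3 of 4 laminins rose and 1 fell, and 2 of 6 MMPs rose and 2 fell. Of 7 ADAMTS genes, 2 rose and 5 fell, and of 3 TIMPs, 2 rose and 1 fell. No cadherin, protocadherin or LTBP rose: 2 of 3 cadherins, 4 of 5 protocadherins and both LTBPs fell with the recovered totals, and none of these 3 families had a call in either direction with TMM. The other 14 members were too low to be tested (CDH12, COL4A5, COL5A2, ITGA10, LAMC3, MMP10, MMP23B, PCDHB5, PCDHB14, PCDHGA1, PCDHGA6, PCDHGA9, PCDHGB2 and PCDHGB4), with a highest value of 1.76 CPM, reached by MMP10 in the third GLY library.

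**Figure D1:**
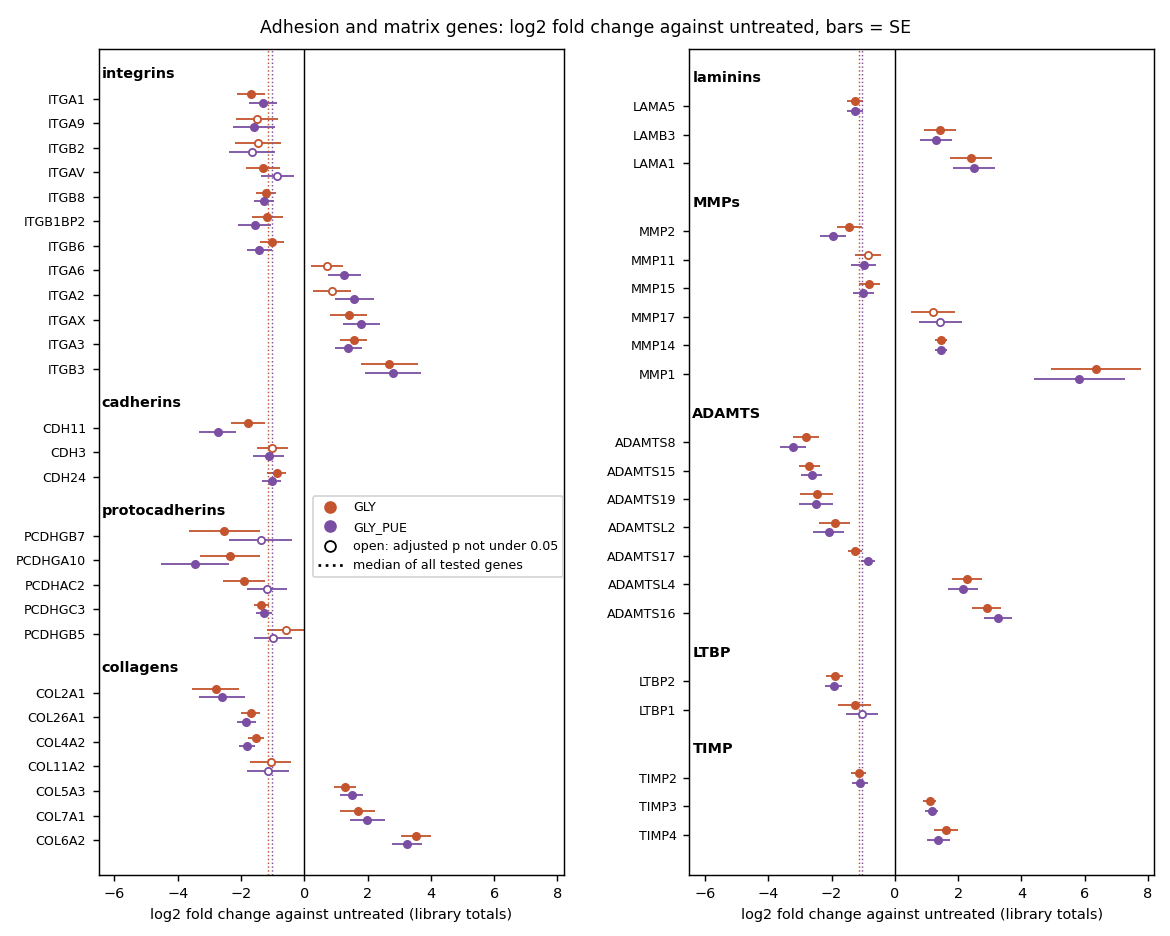
Log2 fold change of tested members against untreated (horizontal axis) in GLY and GLY_PUE libraries, with bars for the standard error, open points for an adjusted p of 0.05 or more, and dotted lines at the median of all tested genes (-1.15 and -1.03). The laminins LAMA1 and LAMB3 sit to the right of 0 and LAMA5 to the left in both treatments.

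Among the laminin chains, LAMB3 (gene ID 3914), the β chain of the laminin that anchors epithelia at hemidesmosomes, was at 126, 135 and 36.7 CPM in untreated, 120.2, 121 and 37.4 in PUE, 345, 267 and 190.2 in GLY and 288, 267 and 181 in GLY_PUE libraries. All 3 GLY libraries were higher than all 3 untreated ones, although in each group the third library was the lowest. For LAMB3 the log2 fold change was 1.43 ± 0.50 (SE, adjusted p = 0.0197), and the call was lost without the third untreated library (1.03, adjusted p = 0.0586) or without the first GLY library (1.20, adjusted p = 0.0653). LAMA5 (3911), an α chain of basement membrane laminins, was at 168, 188 and 151 CPM in untreated, 161, 164 and 186 in PUE, 88.2, 78.9 and 44.4 in GLY and 71.6, 80.0 and 60.7 in GLY_PUE libraries. GLY libraries were all below untreated ones, with a log2 fold change of -1.26 ± 0.26 (SE, adjusted p = 0.00127). That is close to the -1.15 of the median tested gene, and the call was lost with TMM (log2 fold change -0.07). LAMA5 exons overlap genes on the other strand, and it is not given whether strand was used in counting. LAMA1 (284217), the α chain of the laminin of early basement membranes, was low at 0.593, 0.299 and 0.641 CPM in untreated, 0.448, 0.590 and 0.711 in PUE, 1.09, 1.69 and 5.49 in GLY and 1.69, 1.65 and 5.45 in GLY_PUE libraries. It rose by 2.42 ± 0.67 (SE, adjusted p = 0.00626) on the log2 scale with no overlap of the groups and was 1.43 (adjusted p = 0.0407) without the third GLY library, the highest of the 3. LAMC3 was at or below 0.299 CPM in every library and was not tested.

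ITGA3 (3675), whose product pairs with the β1 chain to bind laminins, was at 233, 242 and 97.1 CPM in untreated, 233, 231 and 104 in PUE, 799.8, 580.2 and 318 in GLY and 537, 567 and 395 in GLY_PUE libraries. The GLY values lay above the untreated ones without overlap, and the rise was 1.57 ± 0.43 (SE, adjusted p = 0.00590) in log2 units. ITGA6 (3655), which with the β4 chain forms the integrin of hemidesmosomes, was at 362, 364 and 206 CPM in untreated, 354, 361 and 205 in PUE, 127, 854 and 559 in GLY and 817, 879.5 and 536 in GLY_PUE libraries. The first GLY library was lower than every untreated library while the other two were higher than every one of them. Its log2 difference was 0.72 ± 0.51 (SE, adjusted p = 0.192), and it passed without the first GLY library (1.19, adjusted p = 0.00892) and with TMM (1.74, adjusted p = 0.0220). ITGA2 (3673), a collagen receptor chain, showed the same split at 37.6, 35.8 and 33.4 CPM in untreated, 41.1, 35.7 and 35.9 in PUE, 9.50, 125 and 62.1 in GLY and 119, 137 and 63.0 in GLY_PUE libraries. Its log2 difference of 0.88 ± 0.61 (SE, adjusted p = 0.180) also passed without the first GLY library (1.39, adjusted p = 0.00318) and with TMM (1.91, adjusted p = 0.0249).

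Another collagen receptor chain, ITGA1 (3672), moved the other way at 40.8, 41.7 and 70.0 CPM in untreated, 44.6, 41.8 and 68.9 in PUE, 5.39, 17.5 and 24.6 in GLY and 17.3, 19.7 and 25.0 in GLY_PUE libraries. All GLY libraries were below the untreated ones, with the first GLY library lowest, and ITGA1 fell by 1.68 ± 0.45 (SE, adjusted p = 0.00552), a call lost with TMM (-0.60). ITGA1 shares exons with PELO on the same strand, so its counts are uncertain. ITGAV (3685), the α chain shared by receptors for fibronectin, vitronectin and latent TGF-β, was at 69.5, 70.7 and 53.8 CPM in untreated, 74.1, 72.3 and 54.9 in PUE, 5.53, 43.4 and 29.3 in GLY and 42.2, 43.4 and 21.7 in GLY_PUE libraries. It was lower in every GLY library, most of all in the first. Its log2 fold change was -1.31 ± 0.53 (SE, adjusted p = 0.0357). The ITGAV call was lost without the first untreated library (-1.26, adjusted p = 0.0705), without the second (-1.24, adjusted p = 0.0749), without the third GLY library (-1.40, adjusted p = 0.0617) and with TMM.

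ITGB6, ITGB8 and ITGB3 are the β chains in the table that can pair with ITGAV, and all 3 were below 3 CPM in every library. ITGB6, at 2.08, 2.34 and 1.43 CPM in untreated and 0.567, 1.17 and 1.13 in GLY libraries, changed by -1.02 ± 0.38 (SE, adjusted p = 0.0256). The ITGB6 call was lost without the first or second untreated library and without the first GLY library (-0.98, adjusted p = 0.0593; -0.87, adjusted p = 0.0825; -0.76, adjusted p = 0.0752). ITGB8, at 1.84, 1.77 and 2.53 CPM in untreated and 0.671, 1.03 and 0.915 in GLY libraries, changed by -1.22 ± 0.32 (SE, adjusted p = 0.00458). Both fell without overlap of the groups and both calls were lost with TMM, which placed ITGB6 at 0.05. ITGB3, the partner chain known from platelets, rose from 0.0988, 0.0498 and 0.0986 CPM to 0.142, 0.515 and 1.03, a log2 change of 2.69 ± 0.90 (SE, adjusted p = 0.0159). That rise rested on few counts and was lost without the second untreated library (2.44, adjusted p = 0.0536) or the third GLY library (1.92, adjusted p = 0.0879). These 3 chains, and the leukocyte chains that follow, were singled out after their values were seen.

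Chains known from leukocytes were low as well. ITGAX was at 0.380, 0.457 and 0.709 CPM in untreated and 1.20, 0.915 and 1.98 in GLY libraries, a rise of 1.40 ± 0.59 (SE, adjusted p = 0.0410), lost without any 1 of untreated replicates 1 and 2 and GLY replicates 1 and 3 (adjusted p = 0.0583 to 0.15). ITGB2 was at 1.43, 1.34 and 5.67 CPM in untreated and 0.803, 0.515 and 1.74 in GLY libraries, which overlap, and did not pass (-1.46 ± 0.72 SE, adjusted p = 0.0733), but it did without untreated replicate 1 or 2 or GLY replicate 3 (adjusted p = 0.0413 to 0.0495). The summed level of the leukocyte markers CD14 and CD68 was also higher in GLY libraries, as given above. The part of these markers in the ITGAX value was not tested. ITGA9, under 1.5 CPM in every library, did not pass (-1.49 ± 0.67 SE, adjusted p = 0.0518), and did without untreated replicate 1 or 2 or GLY_PUE replicate 2 (adjusted p = 0.0322 to 0.0488). ITGB1BP2, under 1 CPM in every library, fell by 1.16 ± 0.50 (SE, adjusted p = 0.0462), a call lost when any untreated or GLY library, PUE replicate 1 or 2, or GLY_PUE replicate 2 or 3 was left out (adjusted p = 0.0511 to 0.149).

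**Figure D2:**
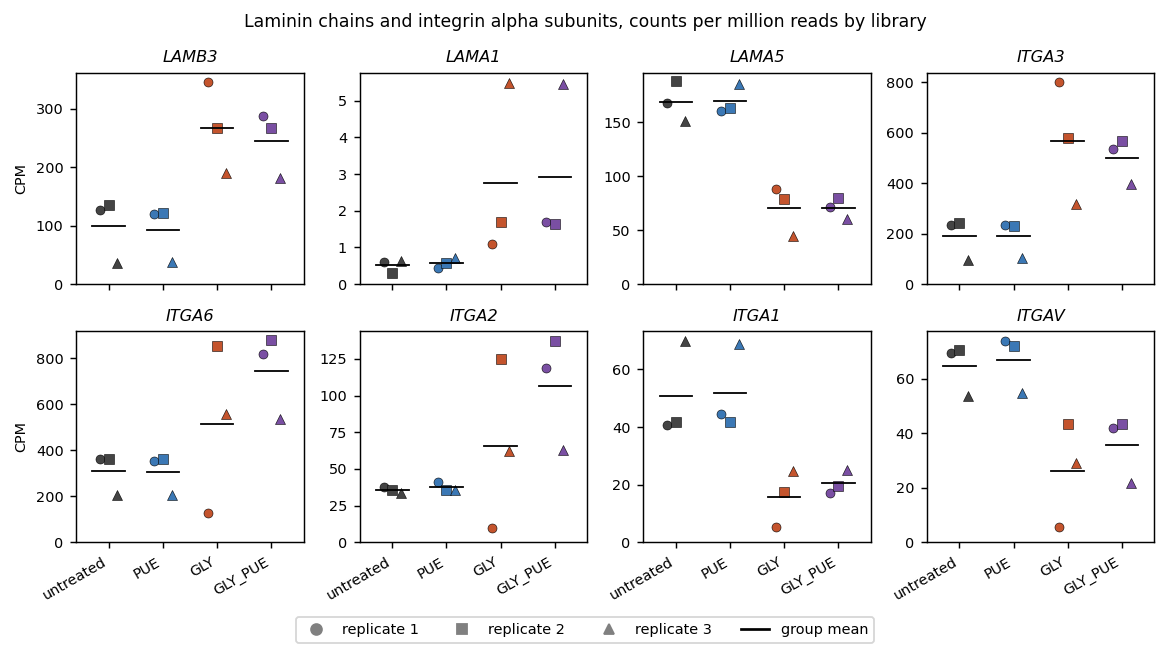
CPM (vertical axis, one scale per panel) of laminin and integrin genes in each of the 12 libraries, with a mark per replicate and a line at each group's mean. GLY and GLY_PUE libraries lie above untreated and PUE libraries for LAMA1, LAMB3 and ITGA3, while the first GLY library is low for ITGA2, ITGA6, ITGA1 and ITGAV.

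Among cadherins, CDH3 (1001), the P-cadherin of epithelial junctions, had the most counts at 33.7, 30.9 and 15.9 CPM in untreated, 34.2, 31.6 and 18.2 in PUE, 17.6, 16.2 and 6.05 in GLY and 15.3, 16.1 and 5.35 in GLY_PUE libraries. The third library was lowest in every group, and the untreated and GLY values overlapped. CDH3 did not pass (-1.01 ± 0.48 SE, adjusted p = 0.0655), although it did with DESeq2 (adjusted p = 0.0476), without the third untreated library (-1.28, adjusted p = 0.0407) and without the third GLY_PUE library, which shares the estimate of spread (adjusted p = 0.0415). CDH3 also passed with the replicate number as a block (-1.08, adjusted p = 0.000874) and with libraries numbered 3 left out (-0.93, adjusted p = 0.00615). CDH24 (64403), a type II cadherin, was at 10.4, 12.9 and 8.51 CPM in untreated, 10.3, 12.1 and 12.0 in PUE, 8.13, 5.29 and 3.98 in GLY and 4.54, 6.50 and 4.55 in GLY_PUE libraries. GLY libraries lay below untreated ones, at a log2 fold change of -0.87 ± 0.30 (SE, adjusted p = 0.0167). The CDH24 call was lost without the second untreated library (-0.71, adjusted p = 0.0680) or without the second or the third GLY library (-0.81, adjusted p = 0.0516; -0.66, adjusted p = 0.0591), and with TMM the log2 value was above 0 (0.32). CDH11, the cadherin known from mesenchymal cells, was at 0.494, 0.647 and 0.838 CPM in untreated, 0.348, 0.246 and 0.813 in PUE, 0.189, 0.187 and 0.188 in GLY and 0.0468, 0.141 and 0.0947 in GLY_PUE libraries. It fell by 1.78 ± 0.53 (SE, adjusted p = 0.00934) with no overlap, on fewer than 1 CPM in every library. CDH12 was at or below 0.559 CPM throughout.

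Protocadherins of the α and γ clusters share their last exons, and most of the listed ones were at the edge of detection. PCDHGC3 (5098) was the exception at 26.7, 26.4 and 23.6 CPM in untreated, 27.8, 27.6 and 21.3 in PUE, 10.3, 12.1 and 7.61 in GLY and 10.3, 12.4 and 9.07 in GLY_PUE libraries. It fell without overlap by 1.35 ± 0.24 (SE, adjusted p = 0.000587), near the median of all tested genes, and with TMM the value was -0.20. PCDHAC2, PCDHGA10 and PCDHGB7 had log2 fold changes of -1.91, -2.34 and -2.53 at adjusted p = 0.0190, 0.0362 and 0.0489, and each call was lost when single libraries were left out, the first GLY library included (adjusted p = 0.067, 0.11 and 0.142 without it). PCDHGB5, at 0.904, 0.560 and 0.534 CPM in untreated and 0.739, 0.208 and 0.390 in GLY libraries, did not pass (-0.58 ± 0.59 SE, adjusted p = 0.354). Because the γ genes share exons with each other in the GENCODE 29 annotation, how reads were split between them is uncertain.

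Of 7 tested collagens, 3 rose and 3 fell. COL6A2 (1292), a chain of the microfibril-forming collagen VI, was at 0.296, 0.746 and 0.345 CPM in untreated, 0.298, 0.541 and 0.508 in PUE, 6.14, 3.42 and 6.62 in GLY and 3.56, 3.01 and 6.72 in GLY_PUE libraries. Every GLY library was higher than every untreated one, and COL6A2 rose by 3.53 ± 0.47 (SE, adjusted p = 0.000113) on the log2 scale. COL7A1 (1294), the collagen of the anchoring fibrils that hold epithelial basement membranes to the tissue below, was at 3.46, 4.13 and 4.63 CPM in untreated, 3.48, 4.72 and 7.17 in PUE, 15.2, 7.44 and 16.8 in GLY and 7.82, 7.39 and 33.2 in GLY_PUE libraries. Its GLY values did not overlap the untreated ones, with a log2 fold change of 1.69 ± 0.55 (SE, adjusted p = 0.0140). COL5A3 (50509), a chain of the fibrillar collagen V, rose from 2.08, 1.69 and 1.38 CPM to 4.44, 2.72 and 5.44, by 1.29 ± 0.36 (SE, adjusted p = 0.00646).

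COL4A2 (1284), a chain of the collagen IV network of basement membranes, was at 35.6, 37.7 and 42.7 CPM in untreated, 32.8, 31.5 and 45.1 in PUE, 16.8, 11.4 and 11.9 in GLY and 10.9, 9.04 and 12.8 in GLY_PUE libraries. It had the most counts of the listed collagens in untreated cells, and all GLY libraries were lower, at a log2 fold change of -1.53 ± 0.25 (SE, adjusted p = 0.000378). COL26A1 (136227) was at 3.11, 3.18 and 3.94 CPM in untreated and 1.37, 1.12 and 0.657 in GLY libraries, a log2 change of -1.70 ± 0.31 (SE, adjusted p = 0.000635). COL2A1, the cartilage collagen, was below 1 CPM in every library and was lower at a log2 value of -2.80 ± 0.74 (SE, adjusted p = 0.00492). All 3 of these lower calls were lost with TMM, where the log2 values were -0.33, -0.50 and -1.67. COL4A2 has antisense genes whose reads cannot be told apart from its own if counting ignored strand. COL2A1 was at -4.57 (adjusted p = 0.000989) without the first GLY library. COL11A2 did not pass (-1.06 ± 0.65 SE, adjusted p = 0.138), and without the first GLY library it did (-2.20, adjusted p = 0.0127).

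MMPs moved in both directions. MMP14 (4323), a membrane-bound protease that cuts collagen and activates the MMP2 proenzyme, was at 53.2, 57.8 and 46.3 CPM in untreated, 53.8, 54.9 and 46.3 in PUE, 159, 143 and 131 in GLY and 139, 139 and 152 in GLY_PUE libraries. Its GLY libraries lay far above the untreated ones, with a log2 fold change of 1.46 ± 0.20 (SE, adjusted p = 0.000113). MMP15, another membrane-bound member, was at 18.4, 17.6 and 12.0 CPM in untreated and 13.8, 8.24 and 5.30 in GLY libraries, which overlap. MMP15 passed at -0.81 ± 0.33 (SE, adjusted p = 0.0381), and that call was lost without untreated replicate 1 or 2, GLY replicate 2 or 3, or the first GLY_PUE library, which shares the estimate of spread (adjusted p = 0.0501 to 0.131). MMP2, the gelatinase, fell from 1.19, 1.54 and 1.13 CPM to 0.661, 0.375 and 0.375, a log2 change of -1.44 ± 0.40 (SE, adjusted p = 0.00630). With TMM neither lower call held, and MMP15 stood at 0.39. MMP11 did not pass (-0.86 ± 0.41 SE, adjusted p = 0.0637), and did without the second untreated library (-1.11, adjusted p = 0.0320). MMP17 did not pass either (1.21 ± 0.68 SE, adjusted p = 0.111), and did without the second GLY library (1.63, adjusted p = 0.0399) and with TMM (2.42, adjusted p = 0.0121).

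MMP1, the interstitial collagenase, was close to 0 without GLY, at 0, 0 and 0.0493 CPM in untreated, 0, 0.0984 and 0 in PUE, 0.425, 0.702 and 4.41 in GLY and 0.703, 0.471 and 2.65 in GLY_PUE libraries. The third library was the highest in both GLY and GLY_PUE. Summed over libraries there was 1 MMP1 count in untreated and 118 in GLY libraries, a ratio of 112 after scaling (exact 95% interval 19.7 to 4463, counting error only). The third GLY library gave 94 of the 118, and without it the ratio was 34.2 (5.58 to 1407). In the fitted test the adjusted p was 0.00203, with a log2 value that rests on that single count. MMP1 was kept for that test by its counts in GLY and GLY_PUE libraries, so the p-value adds no separate evidence. MMP10, a stromelysin, was not tested but had 1 count in untreated against 43 in GLY libraries, a ratio of 40.8 (6.95 to 1650). Its values in GLY were 0, 0.213 and 1.76 CPM, so most of these counts came from the third library, and without it the ratio was 7.13 (0.798 to 337). MMP1 and MMP10 were singled out after their values were seen. MMP23B, which has a near-identical copy, held at most 0.444 CPM.

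In GLY against untreated, 3 ADAMTS genes gave the only lower calls among members that held with all 3 scalings. ADAMTS15 (170689), a protease that cuts large proteoglycans, was at 11.5, 11.5 and 10.8 CPM in untreated, 11.2, 11.5 and 12.1 in PUE, 2.08, 1.78 and 1.31 in GLY and 1.08, 1.55 and 2.79 in GLY_PUE libraries. Untreated and PUE libraries were tightly grouped and all GLY libraries were lower, at a log2 fold change of -2.70 ± 0.33 (SE, adjusted p = 6.72e-05), and with TMM -1.53 (adjusted p = 0.00264). ADAMTS8 (11095), another proteoglycan-cutting member, was at 15.3, 15.9 and 30.4 CPM in untreated, 12.1, 14.6 and 29.5 in PUE, 2.50, 2.81 and 3.47 in GLY and 1.69, 2.03 and 2.84 in GLY_PUE libraries. Among untreated and PUE libraries those numbered 3 were the highest, and all GLY libraries were lower, at a log2 fold change of -2.81 ± 0.41 (SE, adjusted p = 0.000174), and with TMM -1.63 (adjusted p = 0.000843). ADAMTS19 (171019) was at 13.4, 11 and 26.5 CPM in untreated, 11.6, 11.9 and 24.8 in PUE, 0.992, 3.28 and 4.87 in GLY and 2.58, 3.16 and 3.31 in GLY_PUE libraries. Here too the groups did not overlap, and the change was -2.48 ± 0.52 (SE, adjusted p = 0.00152), and with TMM -1.37 (adjusted p = 0.0183).

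ADAMTS17 (170691), a protease linked to fibrillin microfibrils, was at 12.9, 13.8 and 13.3 CPM in untreated, 13.7, 13.3 and 14.4 in PUE, 4.32, 6.80 and 5.58 in GLY and 6.14, 8.26 and 7.70 in GLY_PUE libraries. It fell without overlap by 1.26 ± 0.23 (SE, adjusted p = 0.000678), close to the median tested gene, and the call was lost with TMM (-0.13). ADAMTSL2, whose product binds fibrillin and lacks protease activity, went from 14.6, 13.8 and 36.2 CPM to 6.97, 4.07 and 6.19, a log2 change of -1.90 ± 0.49 (SE, adjusted p = 0.00458) that with TMM was -0.66 and not called. Without the third untreated library it was -1.30 (adjusted p = 0.0261). ADAMTS16 (170690) moved the other way at 1.33, 0.995 and 0.591 CPM in untreated, 1.29, 1.08 and 0.711 in PUE, 4.39, 6.18 and 11.3 in GLY and 8.43, 6.50 and 13.1 in GLY_PUE libraries. Its GLY libraries were all higher than the untreated ones, by 2.90 ± 0.45 (SE, adjusted p = 0.000267). ADAMTSL4, another fibrillin binding protein, rose from 1.58, 1.64 and 0.394 CPM to 8.55, 5.43 and 3.66, by 2.28 ± 0.48 (SE, adjusted p = 0.00144).

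TIMPs split as well. TIMP2 (7077), the inhibitor that also bridges MMP14 and the MMP2 proenzyme, was at 306, 320.4 and 239.5 CPM in untreated, 301, 320.5 and 235 in PUE, 141, 154 and 96.2 in GLY and 139.6, 157 and 108 in GLY_PUE libraries. It had the highest level per length of all 63 members in untreated cells, 79.8 FPKM. GLY libraries did not overlap untreated ones and TIMP2 fell by 1.15 ± 0.25 (SE, adjusted p = 0.00166), equal to 2 decimals to the median of all tested genes. TMM set it at 0.01. TIMP3 (7078), the inhibitor that binds to the matrix, was at 12.2, 12.5 and 9.81 CPM in untreated, 11.2, 12.3 and 10.9 in PUE, 19.7, 26.4 and 27.6 in GLY and 25.4, 25.5 and 25.9 in GLY_PUE libraries. Every GLY library was above every untreated one, and TIMP3 rose by 1.10 ± 0.22 (SE, adjusted p = 0.00103). TIMP4 (7079) was at 1.48, 1.59 and 0.838 CPM in untreated, 1.79, 1.33 and 0.762 in PUE, 4.82, 2.67 and 4.50 in GLY and 3.37, 3.44 and 3.36 in GLY_PUE libraries. It rose without overlap by 1.61 ± 0.37 (SE, adjusted p = 0.00238).

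Of the latent TGF-β binding proteins, LTBP2 (4053), which binds fibrillin microfibrils, was at 53.4, 52.0 and 38.1 CPM in untreated, 48.5, 47.3 and 41.8 in PUE, 14.1, 15.3 and 8.91 in GLY and 12.6, 15.2 and 9.57 in GLY_PUE libraries. All GLY libraries were lower, at a log2 fold change of -1.90 ± 0.28 (SE, adjusted p = 0.000174), and with TMM -0.75 (adjusted p = 0.112). LTBP1, which carries latent TGF-β, was at 1.33, 1.09 and 1.77 CPM in untreated and 0.331, 0.421 and 0.985 in GLY libraries. It fell by 1.27 ± 0.52 (SE, adjusted p = 0.0381), a call lost without any 1 of untreated replicates 1 and 3 and GLY replicates 1 and 2 (adjusted p = 0.0614 to 0.12). Without the third GLY library LTBP1 was at -1.88 (adjusted p = 0.0113).

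**Figure D3:**
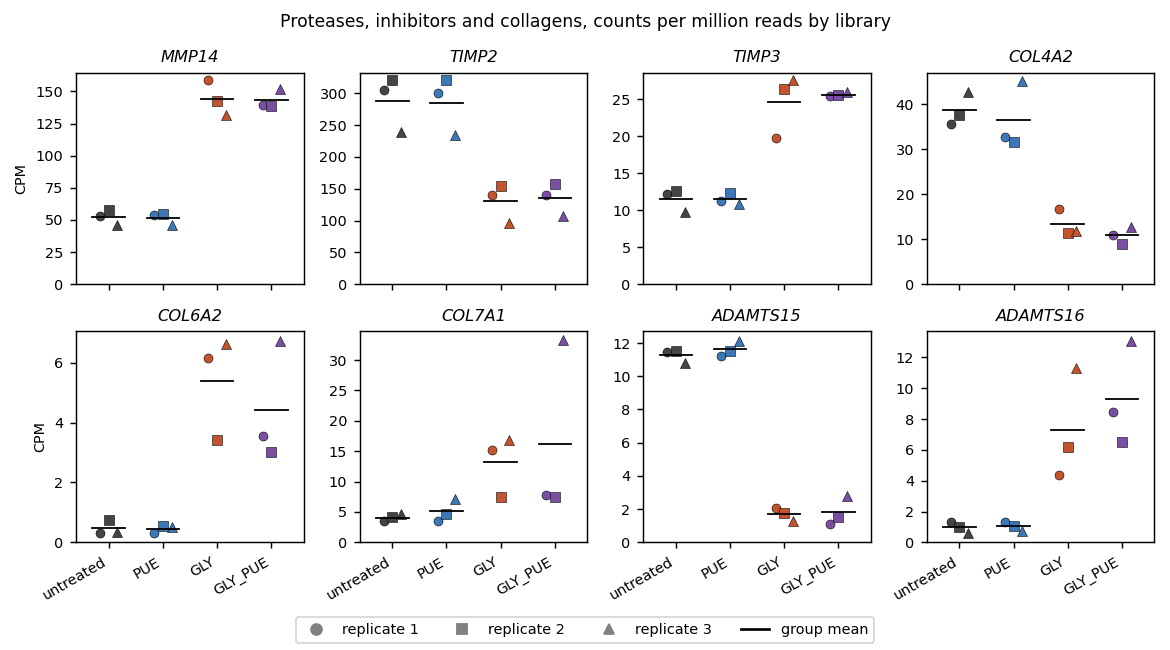
CPM (vertical axis, one scale per panel) of protease, inhibitor and collagen genes in each of the 12 libraries, with a mark per replicate and a line at each group's mean. MMP14, TIMP3, COL6A2, COL7A1 and ADAMTS16 are higher, and TIMP2, COL4A2 and ADAMTS15 lower, in every GLY and GLY_PUE library than in every untreated library.

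Ratios within a library do not depend on how libraries are scaled. They were chosen after the values had been seen and are a description, with no test, on the authors' length-normalised values (FPKM). The ratio of MMP14 to TIMP2 was 0.177, 0.183 and 0.197 in untreated, 0.181, 0.174 and 0.201 in PUE, 1.15, 0.942 and 1.39 in GLY and 1.01, 0.90 and 1.43 in GLY_PUE libraries. All GLY-treated libraries thus held more MMP14 relative to TIMP2 than any library without GLY. For LAMB3 over LAMA5 the values were 2.12, 2.01 and 0.681 in untreated and 11.1, 9.55 and 11.9 in GLY libraries. In this laminin ratio the third untreated library was lowest and no untreated value reached the lowest GLY value. COL6A2 over COL4A2 went from 0.0151 to 0.0392 in untreated to 0.573 to 1.06 in GLY libraries. A ratio shows unequal change of the pair and not which of them changed.

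**Figure D4:**
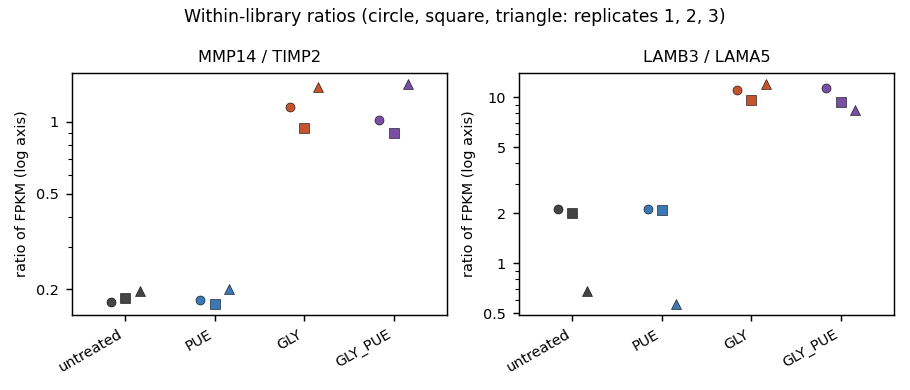
Ratios of FPKM within each library (vertical axes, logarithmic) for MMP14 over TIMP2 and LAMB3 over LAMA5 in the 4 groups, with a mark per replicate. GLY and GLY_PUE libraries lie above untreated and PUE libraries in both panels, at 0.90 to 1.43 against 0.174 to 0.201 for MMP14 over TIMP2.

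GLY_PUE against untreated shares the untreated libraries with the comparison above, so the values of both are given side by side and not as separate evidence. Of the 49 tested members, 17 were higher and 24 lower, where 77.3% of all tested genes were called, 20.2% higher and 57.1% lower. The members' median was -1.04 against -1.03 for all tested genes. With all 3 scalings, 17 were higher (20.2%) and 6 lower (11.5%): ADAMTS8, ADAMTS15, ADAMTS19, LTBP2, CDH11 and COL4A2. The upward shift with TMM and RLE again left higher calls little room to be lost. The libraries of both groups did not overlap for 17 members with higher and 24 with lower values (21.8% and 65.4% of all tested genes). The authors' deposited table marks 46 members here, 19 higher and 27 lower, where 69.0% of the listed genes were marked.

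Laminin genes moved by 1.30 for LAMB3, 2.50 for LAMA1 and -1.26 for LAMA5 in log2 units (adjusted p = 0.0314, 0.00569 and 0.00137). The LAMB3 call was lost without the third untreated library or without GLY_PUE replicate 1 or 2 (adjusted p = 0.0706 to 0.0931). ITGA6 and ITGA2, which did not pass in GLY, passed here at 1.26 ± 0.52 (SE, adjusted p = 0.0410) and 1.58 ± 0.61 (SE, adjusted p = 0.0331), with no GLY_PUE library in the untreated range. Both calls were lost when any untreated library, or GLY_PUE replicate 1 or 2, was left out (adjusted p = 0.0603 to 0.13), and with limma-voom (0.0508 and 0.0568), and that of ITGA6 also without the first PUE library (0.0507). ITGA3 rose by 1.39 ± 0.42 (SE, adjusted p = 0.0115). MMP14 rose by 1.45 ± 0.20 (SE, adjusted p = 0.000135), and TIMP3 by 1.16 ± 0.22 (SE, adjusted p = 0.000822). COL6A2 rose by 3.24 ± 0.47 (SE, adjusted p = 0.000201). COL7A1 rose by 1.99 ± 0.55 (SE, adjusted p = 0.00723), but without the third GLY_PUE library, at 33.2 CPM, its value was 0.90, adjusted p = 0.0540. The MMP1 counts summed to 81 (ratio 77.1, exact 95% interval 13.4 to 3082), of which 56 were from the third GLY_PUE library (35.6 without it, 5.83 to 1461). Those of MMP10 summed to 27 (ratio 25.7, 4.24 to 1052), 19 of them from that library (11.4 without it, 1.53 to 505). LAMA1 also depended on it and was at 1.69 (adjusted p = 0.0322) when it was left out.

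Lower members in GLY_PUE included ADAMTS8 (-3.23), ADAMTS15 (-2.63), ADAMTS19 (-2.49), COL4A2 (-1.82) and LTBP2 (-1.94) in log2 units (adjusted p = 0.000101, 9.05e-05, 0.00159, 0.000151 and 0.000171). CDH11 fell by 2.73 ± 0.59 (SE, adjusted p = 0.00176), with 0.0468 to 0.141 CPM in GLY_PUE libraries. TIMP2 fell by 1.10 ± 0.25 (SE, adjusted p = 0.00231), again near the median of all tested genes, and with TMM neither it nor LAMA5 was called (-0.10 and -0.26). ITGAV did not pass (-0.85 ± 0.53 SE, adjusted p = 0.143), although without the first GLY library, which shares the estimate of spread, it did (adjusted p = 0.0126). Same-numbered libraries deviated together in this pair of groups (correlations of 0.29, 0.24 and 0.41). Libraries numbered 1 and 2 also did so across numbers (0.23 and 0.27). With the replicate number as a block, ITGB2 (-1.50, adjusted p = 0.00124), LTBP1 (-1.15, adjusted p = 0.00892), MMP17 (1.35, adjusted p = 0.0334) and PCDHAC2 (-1.31, adjusted p = 0.00440) passed as well, and MMP11 no longer did (adjusted p = 0.0511).

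GLY_PUE against PUE compares cells with and without GLY on a PUE background. There 17 members were higher and 26 lower, where 77.8% of all tested genes were called, 20.6% higher and 57.3% lower. With TMM 18 were higher and 4 lower (24.2% and 11.7% of all tested genes). MMP14 rose by 1.47 ± 0.20 (SE, adjusted p = 0.000127) and TIMP3 by 1.16 ± 0.22 (SE, adjusted p = 0.000805). ADAMTS8 fell by 3.10 ± 0.41 (SE, adjusted p = 0.000127) and ADAMTS15 fell by 2.68 ± 0.33 (SE, adjusted p = 8.45e-05).

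PUE against untreated asks what PUE did without GLY, and no member passed (0 of 49, where 0.0% of all 3429 tested genes did). The authors' deposited table marks 0 members and 19 genes in all here (0.514% of the listed genes). At an unadjusted p under 0.05 there were also 0 members and 12 genes in all, and DESeq2 and limma-voom called 0 members. Among 3429 genes, 12 is fewer than that threshold gives without any effect. The p-values of this fit thus appear conservative, and their count is no added evidence of no change. No member had groups without overlap (1.63% of all tested genes were higher and 1.66% lower in that way). The 95% interval of the log2 difference lay within 1 of 0 for 20 of 49 members (61.1% of all tested genes) and within 2 of 0 for 45. Same-numbered libraries deviated together in these 2 groups (correlations of 0.64, 0.55 and 0.82). Libraries numbered 1 and 2 also did so across numbers (0.50 and 0.53), so the match was not by number alone. This fit leaves that shared shift in the spread. With the replicate number as a block the interval lay within 1 of 0 for 27 members (74.5% of all tested genes), and 0 members were called or had an unadjusted p under 0.05. MMP14 differed by -0.02 (95% interval -0.44 to 0.40), TIMP2 by -0.02 (95% interval -0.54 to 0.51) and COL4A2 by -0.08 (95% interval -0.61 to 0.45). LAMB3, low in libraries numbered 3, was less precisely placed at -0.10 (95% interval -1.16 to 0.97), and with the block at -0.08 (95% interval -0.71 to 0.55). The member with the smallest p was PCDHGB5 at 0.66 (95% interval -0.56 to 1.87).

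GLY_PUE against GLY asks whether PUE altered the response to GLY, and again no member passed (0 of 49, where 0.0% of all tested genes did, with a smallest adjusted p of 0.959 among members). The authors' deposited table marks 0 members and 70 genes in all here (1.89% of the listed genes). At an unadjusted p under 0.05 there were 0 members and 57 genes in all, again fewer than that threshold gives without any effect. DESeq2 and limma-voom called 0 members. The interval lay within 1 of 0 for 16 members (40% of all tested genes) and within 2 for 42, so larger differences remain possible for the rest. With the replicate block it lay within 1 for 28 members (51.8% of all tested genes), and again 0 were called or had an unadjusted p under 0.05. The match by number was partial here. In its deviations from the group mean, the first GLY_PUE library correlated at 0.106 with the first GLY library and at 0.269 with the second. MMP14 differed by -0.01 (95% interval -0.43 to 0.41), TIMP3 by 0.06 (95% interval -0.40 to 0.52) and ADAMTS15 by 0.07 (95% interval -0.64 to 0.78). ITGA2, where the first GLY library stood apart, had a wide interval at 0.70 (95% interval -0.61 to 2.00). The smallest p belonged to ADAMTS17 at 0.40 (95% interval -0.10 to 0.90). CDH11 was the only member whose libraries did not overlap, at a log2 difference of -0.95 (95% interval -2.37 to 0.47) (1.6% of all tested genes were lower and 3.21% higher without overlap).

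The interaction of GLY and PUE, which tests whether the change with GLY differs in the presence of PUE, passed for no member (0 of 49, 0.0% of all tested genes, smallest adjusted p = 0.999). Without a replicate block, no member had an unadjusted p under 0.05, beside 33 genes in all, also fewer than that threshold gives without any effect. DESeq2 and limma-voom called 0 members. The interval of that edgeR fit lay within 1 of 0 for 9 members (18.3% of all tested genes). Its smallest p was that of PCDHGB5 at -1.06 (95% interval -2.89 to 0.76). With the replicate block the interval lay within 1 of 0 for 16 members (31.1% of all tested genes), and 0 members were called. Among members, only PCDHAC2 then had an unadjusted p under 0.05, at 1.09 (95% interval 0.0121 to 2.17), where 58 genes in all did. For PCDHAC2 the first GLY library stood apart, as given above.

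Other genes of the same pathways, taken from 7 lists of textbook names, were placed beside the members for GLY against untreated. Of 14 tested cell junction genes, 4 rose and 10 fell (median log2 fold change -1.08), where all tested genes had a median of -1.15 and 19.7% rose and 64.6% fell. Those shares stand beside every list here. The gap junction gene GJB1 stood at -3.21 ± 0.38 (SE, adjusted p = 5.41e-05), and the tight junction gene CLDN4 rose by 1.30 ± 0.20 (SE, adjusted p = 0.000259). Focal adhesion genes, which link integrins to actin, had a median of 1.03, and 9 of 17 rose and 7 fell. The difference of any list from all tested genes was not tested. Among them FLNC, an actin crosslinker, rose by 2.42 ± 0.34 (SE, adjusted p = 0.000140) while KANK2 fell by 2.42 ± 0.25 (SE, adjusted p = 3.05e-05) and the dystroglycan gene DAG1 fell by 1.75 ± 0.26 (SE, adjusted p = 0.000208). With TMM 10 focal adhesion genes were higher and 3 lower.

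Of 21 other matrix genes 5 rose and 13 fell (median -1.09), with NTN1 at -1.48 ± 0.23 (SE, adjusted p = 0.000279) and SPOCK1 at 2.24 ± 0.51 (SE, adjusted p = 0.00216). SPOCK1 was low, at 0.148 to 0.249 CPM in untreated and 0.52 to 1.69 in GLY libraries. VWA1 stood at -2.38 ± 0.41 (SE, adjusted p = 0.000498). Of 7 genes on the list for making and secreting collagen 2 rose and 4 fell (median -1.19): the prolyl hydroxylase gene P4HA2 rose by 1.13 ± 0.24 (SE, adjusted p = 0.00146) and TLL2, a tolloid-like protease, fell by 1.99 ± 0.35 (SE, adjusted p = 0.000508). SEC24D, of the coat that carries procollagen, rose by 2.11 ± 0.49 (SE, adjusted p = 0.00259). Its first GLY library, at 32.9 CPM, lay close to the untreated range of 26.8 to 30.7, and the other GLY libraries were at 120 and 219. Among 12 other proteases and inhibitors 4 rose and 7 fell (median -0.95). PLAU, the urokinase that starts plasmin-driven matrix cleavage, rose by 2.67 ± 0.47 (SE, adjusted p = 0.000530). ADAM19, a membrane-bound protease, fell by 1.14 ± 0.20 (SE, adjusted p = 0.000476). Of 24 TGF-β and BMP pathway genes 5 rose and 14 fell (median -1.02), and the target ID2 fell by 3.12 ± 0.32 (SE, adjusted p = 2.93e-05). BAMBI, a decoy receptor of the pathway, fell by 2.28 ± 0.26 (SE, adjusted p = 5.24e-05), and the ligand BMP4 fell by 2.57 ± 0.24 (SE, adjusted p = 1.57e-05). On the list of epithelial-mesenchymal transition genes 2 of 8 rose and 4 fell (median -0.27). SNAI2, a repressor of epithelial genes, rose by 2.73 ± 0.58 (SE, adjusted p = 0.00154), SNAI3 fell by 3.68 ± 0.66 (SE, adjusted p = 0.000595) and S100A4 fell by 0.84 ± 0.26 (SE, adjusted p = 0.0116). The SNAI3 value rests on few reads, at 0.641 to 1.04 CPM in untreated and 0.0472, 0 and 0.141 in GLY libraries. With TMM S100A4 was above 0 (0.39, adjusted p = 0.456), and DAG1, NTN1, VWA1 and ADAM19 were no longer called (adjusted p = 0.105, 0.497, 0.0715 and 0.998). The counts with TMM, where 23.7% of all tested genes were higher and 10.1% lower, were 4 higher and 1 lower for junctions, 6 and 0 for other matrix genes, 2 and 1 for collagen making, 5 and 0 for proteases and inhibitors, 8 and 3 for TGF-β genes and 4 and 1 for transition genes.

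Levels can be compared between genes only per length. In untreated cells 23 of 63 members had a mean of at least 1 FPKM (36.5%, against 63.2% of the listed genes). TIMP2 led with 79.8 FPKM, followed by ITGA6 with 58.1, ITGA3 with 40.1, LAMB3 with 24.7, LAMA5 with 14.9 and MMP14 with 14.7. In GLY libraries the mean levels were 120.1 FPKM for ITGA3, 95.9 for ITGA6, 66.6 for LAMB3, 40.5 for MMP14 and 36.0 for TIMP2. The order of ITGA3 and ITGA6 rests on the first GLY library. Without it the mean was 131.8 FPKM for ITGA6 and 94.3 for ITGA3, while LAMB3 (56.7), MMP14 (38.5) and TIMP2 (34.6) kept their places. Neighbours in this order were not tested against each other.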

How the data were processed

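The authors deposited 1 table of 3699 genes in 12 libraries (0.5 µg RNA, BGISEQ-500). Per the file headers it holds estimated counts (58.2% whole, within 1e-09), and beside them a length-normalised value whose unit the authors do not name and which behaves as FPKM. Log2 ratios for each pair of groups, with p-values and q-values, were also deposited by the authors. The submitters' processing notes name TopHat and DESeq 1.32.0 but give them no role. Counting tool, use of strand, build and annotation: not given in the sources used here. In some comparison each listed gene reached a log2 ratio of 1 in size with a q-value no higher than 0.001.

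Library totals were recovered by dividing counts by FPKM in 625 genes (at least 100 counts and 5 FPKM in every library). Their absolute scale came from the lengths of 40 genes with a single transcript in GENCODE 29 (20.2 M reads in the first untreated library, 95% interval 20.0 to 20.6). Counts were rounded and the genes kept by filterByExpr were fitted in edgeR 4.0.16 (R 4.3.3) by robust quasi-likelihood, with 4 groups, 12 libraries and these totals as library sizes. Benjamini-Hochberg adjustment ran over 3429 genes, at a threshold of 0.05. Because these genes were listed for differences in the same libraries, the threshold does not set the false discovery rate among unselected genes. SE is the log2 fold change over the root of F. All adjusted p-values here are from such fits unless DESeq2 1.42.0 or limma-voom (limma 3.58.1) is named. The scripts were tested on simulated data.

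Alternatives were TMM and RLE scaling, DESeq2, limma-voom, no filter, a filter of 1 CPM in 3 libraries, a fit of only the libraries compared, a replicate block, leaving out libraries, and a threshold of 0.01. Same-numbered libraries correlated in their deviations from group means at 0.0381 to 0.816. Every pair was above 0.1 except in comparisons of GLY with groups without GLY, so those numbers were not taken as paired. Libraries with different numbers also correlated, such as untreated 1 with PUE 2 (0.498) and GLY 2 with GLY_PUE 1 (0.269). Pairing by number is therefore uncertain in the other groups too. Nothing in the labels says what a number shares.

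Members, lists and tests were chosen with earlier results of these data known. Genes given with all values were, per family and direction, up to 4 called members with the largest change (average log2 CPM no lower than 1, no overlap of groups), all tested members of families with at most 4, the smallest p of the other comparisons, and textbook colon genes. From each pathway list up to 3 genes with the smallest p were named. Some genes that these rules select are not reported here. Exons of 40 of the 63 members overlap another GENCODE 29 gene (20 on the same strand, 24 on the other), so reads may be shared.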

Additional observations from a re-analysis of the deposited data

How the results depend on the processing

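Scaling moved the lower counts most of the choices run. With TMM and with RLE the members called lower numbered 3 and 3 in GLY against untreated, 6 and 6 in GLY_PUE against untreated, and 4 and 6 in GLY_PUE against PUE, where 10.1% and 11%, 11.5% and 12.2%, and 11.7% and 12.2% of all tested genes were called lower. Some log2 values changed sign under TMM and RLE: in GLY, CDH24 (0.32 and 0.25), CDH3 (0.16 and 0.0894), PCDHGB5 (0.60 and 0.53) and, under TMM, TIMP2 (0.00859); in GLY_PUE, ADAMTS17 (0.14 and 0.11) and ITGAV (0.15 and 0.13). At an adjusted p under 0.01, 16 members were lower in GLY, 11 higher in GLY_PUE against untreated, and 10 higher and 16 lower in GLY_PUE against PUE (44.6%, 14.4%, 14.5% and 39.5% of all tested genes). Leaving out 1 library at a time gave 13 to 17 higher and 21 to 27 lower in GLY, 14 to 19 and 20 to 27 in GLY_PUE against untreated, and 12 to 19 and 19 to 29 in GLY_PUE against PUE (over all tested genes 16.7% to 19.8% and 52.6% to 64.6%, 16.8% to 21.0% and 44.2% to 64.2%, and 17.3% to 21.0% and 45.6% to 64.6%). The cause of these changes was not tested. GLY and untreated libraries share only numbers, and not every library correlated best with its own number (0.0653 for the first of each, 0.156 for the first untreated with the second GLY library). With the replicate block the counts were 15 higher and 28 lower in GLY, 18 and 26 in GLY_PUE against untreated, and 18 and 29 in GLY_PUE against PUE (20.8% and 69.2%, 22.2% and 63.1%, and 22.4% and 63.6% of all tested genes), so that no count moved by 1.5 times, and it changed no call against untreated other than those given above and CDH3, ITGA9 and ITGB2, which passed in GLY. PUE against untreated, GLY_PUE against GLY and the interaction had 0 calls among members under every alternative run. At these depths members under about 1 CPM rest on few counts, and their differences have wide intervals.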
